A study of Mus musculus with 12 samples.

Results

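The difference with DSS in the colon of mice kept on the diet labelled CD was described over 13275 of the 54532 genes in the deposited expression table. These genes reached FPKM 1 in 3 or more of the 6 libraries compared. FPKM counts fragments per kilobase of transcript, scaled for how deeply each library was sequenced. The series measured colon mRNA of wild-type C57BL/6J mice in 4 groups of 3 samples, and the labels do not spell out CD. The CD group had the diet alone and the CD+DSS group had the same diet and 2% DSS (dextran sulfate sodium). The remaining groups, a high-fat diet without (HFD) and with 2% DSS (HFD+DSS), served for the estimate of spread and for 1 test of the difference between diets. The labels give no age, sex, DSS duration or time of sampling, and do not say whether a group is 3 animals. The p-values thus reflect only how these samples vary, which may be technical.

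DSS is a sulfated polysaccharide that damages the colonic epithelium of rodents when taken up with drinking water, which lets gut bacteria reach the tissue beneath. The injured colon answers with antibacterial lectins and acute-phase proteins from the epithelium, with cytokines of the IL-6 and IL-1 families that act through STAT3 and NF-kappaB, with matrix-degrading proteases of the stroma, and with recruited leukocytes. Repair follows from crypt stem cells and from epithelium that spreads over the wound. In bulk tissue, fewer cells of a type and less RNA per cell cannot be told apart.

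Of the 13275 genes, 11821 are protein coding, and 11533 were at FPKM 1 or more in all 6 libraries. Only 53 genes entered through the CD+DSS libraries alone and 91 through the CD libraries alone. Of the genes with values below, Mmp3, Fer1l4, Mmp10, Il11, Ccl4, Lcn2 and S100a9 were under FPKM 1 in every CD library, and Tnfrsf19 and Hhip in every CD+DSS library. They were tested only because they were present in the other group, so they had to differ in that direction. Just inside the limit were Mtcl1, Eaf2 and Hist1h2be, whose values in the third highest library were 1.00109, 1.00161 and 1.00183. Just outside it were Foxo6, Sema3a and Tssk6, at 0.999916, 0.999588 and 0.998846. The 6 libraries held about 14700000 to 17400000 fragments over genes.

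The libraries of a group were not alike. On the first principal component of the 6 libraries, which held 46.3% of the variance, CD replicates 1 to 3 scored -27.2, -39.0 and -8.87 and CD+DSS replicates 1 to 3 scored 10.7, 43.5 and 20.8. The groups did not overlap, and CD replicate 3 and CD+DSS replicate 1 lay nearest each other. Hoxb13, a Hox gene of the most posterior body axis, was at FPKM 32.9, 61.3 and 28.8 in CD and at 22.6, 0.0336 and 0.122 in CD+DSS, so CD+DSS replicates 2 and 3 nearly lacked it. Averaged over Hoxa13, Hoxb13 and Hoxd13, the posterior Hox level on the log2 scale was 3.63, 5.11 and 3.13 in CD and 3.26, 0.47 and 1.21 in CD+DSS. The mean log2 level of 14 smooth muscle genes, which include the myosin gene Myh11, was 6.02, 6.28 and 6.05 in CD and 6.04, 5.34 and 5.51 in CD+DSS. Under CD both measures were lower with DSS, through CD+DSS replicates 2 and 3. Under HFD they ran the other way, with Hoxb13 at 0.711, 0 and 19.3 in HFD and at 27.4, 37.8 and 62.8 in HFD+DSS. The median log2 fold change under HFD was 1.21 for posterior Hox genes and 0.36 for smooth muscle genes. The labels do not give the stretch of colon sampled, so a difference in position along the colon and the DSS difference cannot be told apart, which bears on every value below. CD+DSS replicate 1 was within the range of the CD libraries in both. With it as the only CD+DSS library, an alternative chosen after seeing the data, 2 genes were higher and 0 lower, and 1 of them, Mmp3, is among the 12 below.

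With DSS under CD, 10 genes were higher and 2 lower past an adjusted p of 0.05 over all genes (limma on log2(FPKM + 1), Benjamini-Hochberg). The genes that rose were Mmp3, Socs3, Bcl3, Fer1l4, Capg, Reg3g, Hspa1a, Il4ra, Sbno2 and Saa3, and those that fell were St3gal6 and Tceal8. They are 0.0753% and 0.0151% of the genes tested. Counting these 12, 2065 genes had an unadjusted p under 0.05 (1199 higher and 866 lower), where 664 would be reached if no gene differed. In each of the 12 the CD and CD+DSS libraries did not overlap, as was so for 14.1% of all genes in the upward and 10.3% in the downward direction. The overlap counts of each list below are to be read against these shares. Over all genes 52% had a positive log2 fold change, and the median was 0.02 with a median standard error (SE) of 0.21.

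**Figure D1:**
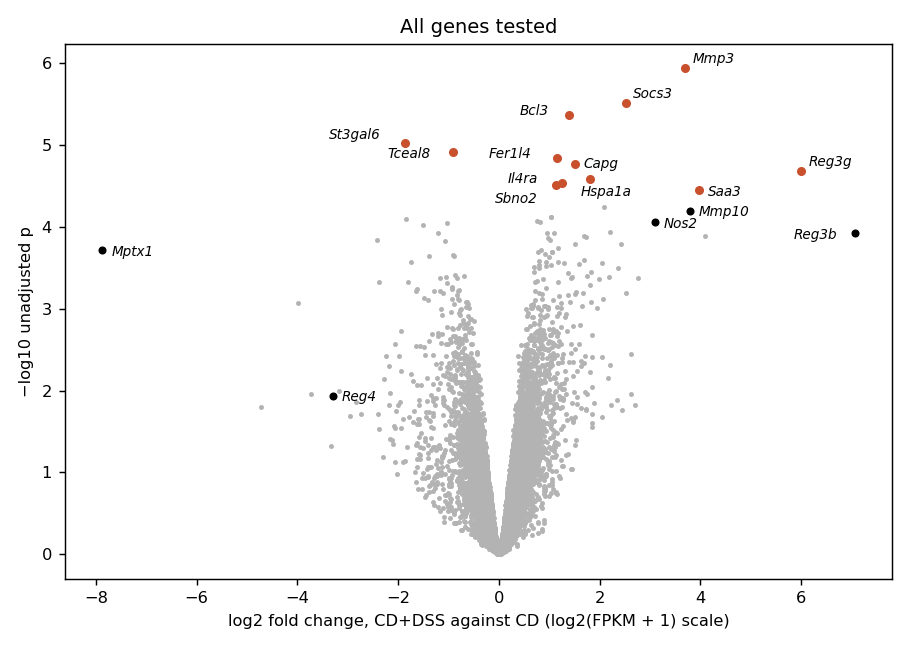
Log2 fold change of CD+DSS against CD (x axis) and −log10 of the unadjusted limma p (y axis) for each of the 13275 genes. Coloured points are the 12 genes past the adjusted threshold, 10 to the right of 0 and 2 to the left. Black points are named genes with large differences that did not pass, such as Reg3b at 7.07 and Mptx1 at -7.87.

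The counts depended on single libraries. They were 0 higher and 0 lower without CD replicate 1, 3 and 0 without CD replicate 2 or CD+DSS replicate 2, 1 and 0 without CD+DSS replicate 3, 4 and 2 without HFD replicate 1, and 5 and 2 without HFD replicate 2. They were 36 and 19 without CD replicate 3, 20 and 4 without HFD+DSS replicate 1, 15 and 2 without HFD+DSS replicate 3, and 11 and 6 without CD+DSS replicate 1. Of the 12 genes, these fits called 12, 12, 11 and 6, in the same order. A fit of the 6 libraries alone called 0 and 0 genes, with 2350 at an unadjusted p under 0.05 and a smallest adjusted p of 0.0509, for Capg. The direction of the 12 genes was the same in each of the 25 alternative fits, apart from 1 fit in which Fer1l4 was not tested. Leaving out libraries, or changing the filter or pseudocount, could not reverse it, because the groups did not overlap in these genes.

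STAT3 and NF-kappaB are transcription factors that cytokines and bacterial products switch on, and 3 of the genes that rose are known to answer or shape these signals. Because the heat shock gene Hspa1a rose as well, the promoters of Socs3, Bcl3 and Hspa1a are shown with the motif each holds, from RefSeq on GRCm38.p6, 250 bases before to 50 bases after the annotated start. Capitals mark the motif: TTCNNNGAA, the STAT motif, in Socs3 (chr11:117969317-117969616, minus strand), GGGANTTCC, an NF-kappaB motif, read on the opposite strand in Bcl3 (chr7:19822706-19823005, minus strand), and GAANNTTC, a pair of heat shock units, in Hspa1a (chr17:34972107-34972406, minus strand).
Socs3: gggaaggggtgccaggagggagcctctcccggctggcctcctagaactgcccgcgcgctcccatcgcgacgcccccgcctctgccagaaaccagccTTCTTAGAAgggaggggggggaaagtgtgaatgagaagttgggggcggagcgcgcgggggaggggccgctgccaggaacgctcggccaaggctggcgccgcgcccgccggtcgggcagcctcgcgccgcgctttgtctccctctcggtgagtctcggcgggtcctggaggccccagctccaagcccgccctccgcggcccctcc
Bcl3: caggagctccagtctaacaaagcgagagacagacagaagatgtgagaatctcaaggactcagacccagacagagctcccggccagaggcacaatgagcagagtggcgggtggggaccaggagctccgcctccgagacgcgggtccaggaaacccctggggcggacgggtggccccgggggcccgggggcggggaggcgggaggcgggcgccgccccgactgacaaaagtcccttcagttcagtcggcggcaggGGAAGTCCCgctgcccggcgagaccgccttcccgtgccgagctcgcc
Hspa1a: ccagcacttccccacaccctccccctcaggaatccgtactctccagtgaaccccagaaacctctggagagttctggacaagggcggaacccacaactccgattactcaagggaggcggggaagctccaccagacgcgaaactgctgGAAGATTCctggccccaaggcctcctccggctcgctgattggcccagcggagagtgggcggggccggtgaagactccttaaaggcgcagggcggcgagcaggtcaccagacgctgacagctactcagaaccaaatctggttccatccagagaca
All 12 genes had a promoter in the table, in 15 entries. Both strands were searched, and a motif may overlap another. Sbno2 had 3 entries and St3gal6 had 2. Counted by entry, the STAT motif was in 3 of the 15 (Socs3 and Sbno2), in 8.30% of all 32851 entries of the same length and in 6.76% of the 12213 entries of tested genes. The NF-kappaB motif was in 2 entries (Bcl3 and Sbno2), against 1.68% and 2.29%. The heat shock form GAANNTTC was in 4 (Hspa1a, Reg3g, Saa3 and Sbno2), against 7.86% and 5.76%. The form TTCNNGAA was in 3 (Saa3, Sbno2 and St3gal6), against 8.52% and 7.03%. A match is a run of letters in this window and does not show that a factor binds there.

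Among antibacterial and acute-phase genes, Reg3g and Saa3 rose. Reg3g (ENSMUSG00000030017, mm10 chromosome 6, 78466269 to 78468872) encodes a secreted lectin that kills Gram-positive bacteria. It was at FPKM 0.794, 2.32 and 12.6 in CD and at 68.7, 589 and 520 in CD+DSS. Its log2 fold change was 6.00 ± 0.86 (SE, n = 3 per group; limma adjusted p = 0.0352). The lowest CD+DSS library was 5.44 times the highest CD library, and CD+DSS replicate 1 was far below the other CD+DSS libraries. With replicate 1 as the only CD+DSS library the log2 difference was 4.01.

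Saa3 (ENSMUSG00000040026, chromosome 7), a serum amyloid A protein made in inflamed tissue, was at 0.667, 0.22 and 1.96 in CD and at 11.7, 23.1 and 75.9 in CD+DSS. It rose by 3.98 ± 0.61 (limma adjusted p = 0.0401), and CD+DSS replicate 3 was the highest library. Of the list of 20 such genes, 18 were tested, 11 had a positive difference, 6 did not overlap upward and 3 downward, and the median log2 fold change was 0.41. Of the 18, 1 (Lcn2) was tested only through CD+DSS, which is part of these counts.

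The list held strongly higher and strongly lower members, and others with little difference, such as Saa1 and Lypd8 (log2 -0.08 and 0.06). Reg3b, the neighbouring lectin gene, was at 1.63, 12.2 and 70.7 in CD and at 305, 5408 and 3630 in CD+DSS (log2 7.07 ± 1.23; limma adjusted p = 0.0583). An acute-phase glycoprotein gene, Lrg1, was at 1.49, 1.36 and 2.04 against 9.34, 9.10 and 16.1, and Lcn2, which binds the iron carriers of bacteria, was at 0.457, 0.558 and 0.892 against 3.74, 3.25 and 14.3. In Reg3b, Lrg1 and Lcn2 the groups did not overlap, and none of these passed the adjusted threshold. Lcn2 was tested only through CD+DSS, so its groups could not overlap. Reg4, a lectin of secretory epithelial cells, was at 63.7, 326 and 1454 in CD and at 18.5, 36.2 and 43.7 in CD+DSS, and Ang4, an antibacterial ribonuclease of Paneth and goblet cells, at 238, 262 and 3194 against 113, 41.4 and 89.2. Both were lower in each CD+DSS library than in each CD library, and CD replicate 3 held by far the most of either (log2 -3.30 ± 1.10 and -2.95 ± 1.09; limma adjusted p = 0.21 and 0.248).

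Mptx1, a mucosal pentraxin of the colon, had the most negative log2 fold change of all genes tested. It was at 1544, 1407 and 5399 in CD and at 231, 1.76 and 0.42 in CD+DSS (log2 -7.87 ± 1.45; limma adjusted p = 0.0653). CD+DSS replicate 1 was far above replicates 2 and 3, the libraries that nearly lacked Hoxb13.

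**Figure D2:**
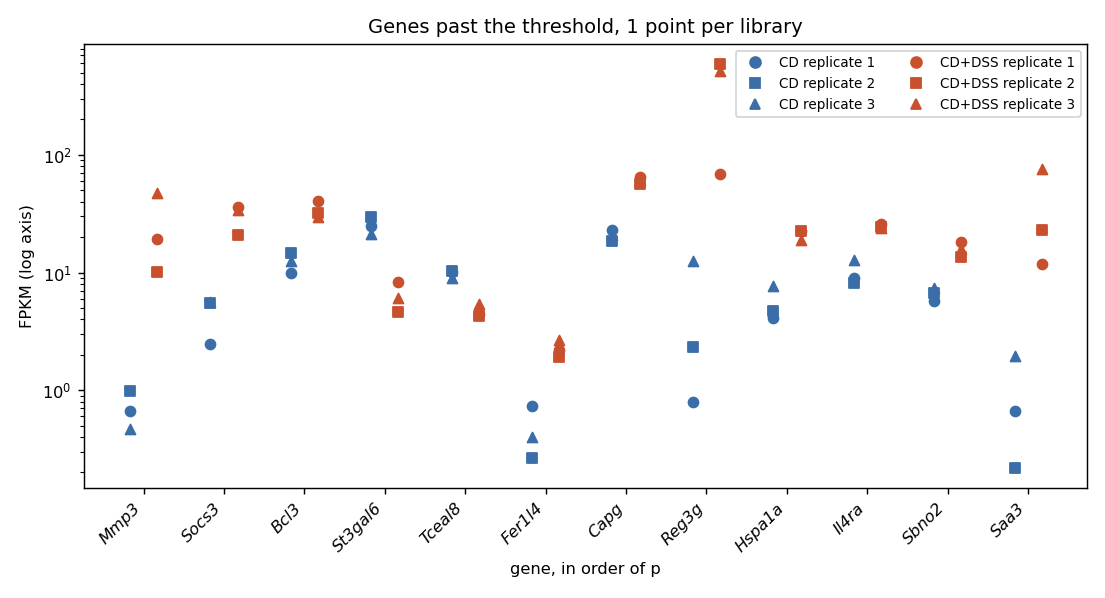
FPKM on a log axis (y) of the 12 genes past the threshold (x, in order of p), with 1 point per library, coloured by group and shaped by replicate. The CD+DSS points lie above the CD points for 10 genes and below them for St3gal6 and Tceal8, and the spread among CD+DSS libraries is widest for Reg3g, from 68.7 to 589.

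Of the matrix proteases, Mmp3 rose. Mmp3 (ENSMUSG00000043613, chromosome 9, 7445822 to 7455975), stromelysin-1, cleaves proteoglycans and activates other proteases of its family. It was at 0.666, 0.989 and 0.466 in CD and at 19.1, 10.1 and 47.4 in CD+DSS (log2 3.70 ± 0.39; limma adjusted p = 0.0156). Its CD values are all under 1, so it was tested only because it was present in CD+DSS. The ratio of the group means was 36.1, and the lowest CD+DSS library was 10.2 times the highest CD library. Mmp3 stayed past the threshold in 21 of the 25 alternative fits, and its adjusted p was 0.122 with posterior Hox level as a covariate.

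Mmp10, stromelysin-2, which lies close to Mmp3 on chromosome 9, was at 0.766, 0.85 and 0.662 in CD and at 12.2, 19.7 and 52.0 in CD+DSS (log2 3.80 ± 0.62; limma adjusted p = 0.0574), and like Mmp3 it was tested only through CD+DSS. The collagenase gene Mmp13 was at 3.95, 1.55 and 1.82 against 8.57, 13.7 and 23.1 (limma adjusted p = 0.0762). In all 3 protease genes CD+DSS replicate 3 was highest. Of 26 matrix genes tested, of 27 in the list, 18 had a positive difference, 6 did not overlap upward and 1 downward, and the median was 0.35. Replicate 3 was the highest CD+DSS library in 20 of the 26, against 29.4% of all genes, and the median was 0.10 without it and 0.60 without CD+DSS replicate 2. Of the 26, 3 were tested only through CD+DSS.

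In the IL-6 family and STAT3 list, Socs3, Bcl3 and Sbno2 rose. Socs3 (ENSMUSG00000053113, chromosome 11), a feedback inhibitor of cytokine receptors that signal through STAT3, was at 2.45, 5.46 and 5.66 in CD and at 36.0, 20.9 and 33.7 in CD+DSS (log2 2.52 ± 0.30; limma adjusted p = 0.0193). Bcl3 (ENSMUSG00000053175, chromosome 7), an IkappaB family protein that binds NF-kappaB p50 and p52 in the nucleus, was at 9.88, 14.7 and 12.6 against 40.5, 31.9 and 29.8 (log2 1.39 ± 0.17; limma adjusted p = 0.0193). Sbno2 (ENSMUSG00000035673, chromosome 10), a transcriptional co-regulator known to respond to IL-10 and STAT3, was at 5.74, 6.76 and 7.35 against 18.1, 13.4 and 15.7 (log2 1.13 ± 0.17; limma adjusted p = 0.038). In these 3 genes CD+DSS replicate 1 was the highest library, and each CD+DSS library exceeded every CD library by 1.83 times or more. Bcl3 alone of the 12 genes kept its call with posterior Hox level as a covariate (log2 1.70; limma adjusted p = 0.0469).

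All 20 genes of that list were tested. Of these, 16 had a positive difference, 10 did not overlap upward and 1 downward, and the median was 0.54. Among 19 NF-kappaB subunits, inhibitors and feedback genes, 15 were positive and 9 did not overlap upward, with a median of 0.43. Rela, the p65 subunit, was at 16.5, 16.02 and 16.6 in CD and at 23.0, 20.8 and 23.7 in CD+DSS, and the inhibitor gene Nfkbib was at 9.12, 8.68 and 12.6 against 17.4, 16.9 and 13.9. Apart from Bcl3, none of the 19 passed the adjusted threshold.

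Of 20 cytokine and mediator genes listed, 9 were tested. Il6 stayed under the limit at 0, 0 and 0.0494 in CD and 0.169, 0.122 and 1.52 in CD+DSS. All 9 had a positive difference and 5 did not overlap upward, with a median of 1.04, which was 0.60 without CD+DSS replicate 3. Il11, an IL-6 family cytokine of stromal cells, was at 0.0298, 0.0316 and 0.179 in CD and at 2.57, 2.72 and 16.9 in CD+DSS (log2 2.52 ± 0.54; limma adjusted p = 0.0877). Il11 and Lif, another member of that family, were tested only through CD+DSS, which is part of the counts just given. Il18, a cytokine of the epithelium, was at 31.2, 57.6 and 9.42 in CD and at 39.7, 30.8 and 19.4 in CD+DSS, and the groups overlapped. Il1b was at 4.12, 3.20 and 1.70 against 10.5, 5.21 and 26.8, and Tnf at 1.10, 1.63 and 1.10 against 4.12, 2.94 and 4.09. None of the 9 passed the adjusted threshold, and CD+DSS replicate 3 had the most Il11 and Il1b.

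Il4ra (ENSMUSG00000030748, chromosome 7), the receptor chain shared by IL-4 and IL-13, rose. It was at 8.95, 8.10 and 12.7 in CD and at 25.9, 24.5 and 23.7 in CD+DSS (log2 1.26 ± 0.19; limma adjusted p = 0.038). The CD+DSS libraries were within a narrow range, and the lowest was 1.87 times the highest CD library. The ligand genes Il4 and Il13 were under the limit. Stat6, the transcription factor downstream of this receptor, was at 18.7, 18.7 and 23.6 against 30.2, 30.8 and 26.4, and Il33, an alarmin, at 1.23, 1.81 and 2.12 against 4.54, 1.98 and 9.20. Of 13 listed genes of this pathway 6 were tested, and all 6 had a positive difference (median 0.77).

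Chemokines were mostly higher without passing the test. Of 25 listed, 20 were tested, 15 were positive and 9 did not overlap upward, with a median of 0.58. The median was 0.36 without CD+DSS replicate 1 and 0.96 without replicate 2, and 2 of the 20 were tested only through CD+DSS. Ccl2, which draws monocytes, was at 1.21, 0.447 and 1.42 in CD and at 5.52, 3.97 and 13.7 in CD+DSS, and Ccl4, which draws T cells and monocytes, at 0.908, 0.771 and 0.636 against 3.74, 2.47 and 5.49 (limma adjusted p = 0.0762 for both). Cxcl1 and Cxcl2, which draw neutrophils, were under the limit, and their highest values were 6.90 and 4.90, in CD+DSS replicate 3. S100a9, a calcium-binding protein that fills neutrophils, was at 0.115, 0 and 0 against 3.49, 3.41 and 16.6. Its partner S100a8 was under the limit and not tested, at 1.18, 0.427 and 8.501 in CD+DSS and under FPKM 1 in every CD library. Only 3 of 15 neutrophil markers were tested, S100a9 only through CD+DSS. The other two, Ly6g at 30.4, 165 and 22.7 against 99.4, 33.8 and 72.7 and Cd177 at 129, 90.8 and 109 against 132, 73.3 and 67.5, overlapped between groups. The granule genes Elane and Mpo were at 0.122 or less in all 6 libraries.

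Nitric oxide and oxidant enzymes had positive differences in 8 of 10 tested genes, 4 without overlap, with a median of 0.48 (0.29 without CD replicate 1). Nos2, the inducible nitric oxide synthase, was at 0.394, 2.03 and 1.73 in CD and at 17.8, 16.1 and 21.7 in CD+DSS (log2 3.10 ± 0.52; limma adjusted p = 0.0574). Duox2, an epithelial enzyme that makes hydrogen peroxide, was at 33.1, 44.1 and 43.6 against 62.2, 106 and 83.8. Its maturation factor Duoxa2 was at 20.04, 28.8 and 37.3 against 61.1, 106 and 76.4. Each CD+DSS library exceeded each CD library in these 3 genes, and none passed the adjusted threshold.

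Capg (ENSMUSG00000056737, chromosome 6), which caps the ends of actin filaments, rose. It was at 23.0, 18.4 and 20.99 in CD and at 64.9, 56.5 and 60.6 in CD+DSS (log2 1.503 ± 0.21; limma adjusted p = 0.0331). Replicates were close within both groups, and the ratio of group means was 2.92. Of 19 actin regulators tested, 14 had a positive difference and 9 did not overlap upward, with a median of 0.31. Arpc1b, a subunit of the actin-branching complex, was at 59.1, 55.1 and 61.0 against 102, 120 and 95.9, and Tmsb10, which binds actin monomers, at 290, 195 and 320 against 487, 736 and 474. Neither passed (limma adjusted p = 0.0653 and 0.0928).

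Fer1l4 (ENSMUSG00000013338, chromosome 2), a ferlin family locus, rose from a low level, at 0.73, 0.268 and 0.40 in CD and 2.20, 1.91 and 2.68 in CD+DSS (log2 1.16 ± 0.16; limma adjusted p = 0.0325). Like Mmp3 it was under FPKM 1 in every CD library. It kept its call in 9 of the 24 alternative fits that tested it, the fewest of the 12 genes.

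The heat shock gene Hspa1a (ENSMUSG00000091971, chromosome 17), an inducible HSP70 chaperone that refolds damaged proteins, rose. It was at 4.10, 4.72 and 7.70 in CD and at 22.4, 22.6 and 18.9 in CD+DSS (log2 1.81 ± 0.27; limma adjusted p = 0.038). Its near-identical neighbour Hspa1b was at 10.4, 13.0 and 24.5 against 74.6, 64.6 and 61.7 (log2 2.09 ± 0.33; limma adjusted p = 0.0574). How the counting split reads between the pair is not given in the sources used here, so each value is uncertain. Both genes had narrow CD+DSS values and no overlap with CD. Of 17 chaperones tested 15 were positive and 7 did not overlap upward, with a median of 0.38. Dnaja1, a co-chaperone of HSP70, was at 18.0, 20.9 and 27.3 against 43.8, 44.4 and 44.8. Among 15 genes of the unfolded protein response, 10 were positive, 0 did not overlap upward and 3 downward, with a median of 0.12 that was 0.03 without CD replicate 2 and 0.22 without CD replicate 3.

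St3gal6 (ENSMUSG00000022747, chromosome 16), which adds sialic acid to galactose on glycoproteins and glycolipids, fell. It was at 24.8, 29.6 and 21.3 in CD and at 8.26, 4.597 and 6.06 in CD+DSS (log2 -1.86 ± 0.25; limma adjusted p = 0.0317). The lowest CD library was 2.57 times the highest CD+DSS library. Of 20 sialylation and mucin-type glycosylation enzymes tested, 9 had a positive difference, 2 did not overlap upward and 2 downward. Of all genes, 14.1% and 10.3% did not overlap in these directions. The median of the 20 was -0.12. Leaving out 1 of the 6 libraries moved that median to between -0.07, when CD replicate 2 was left out, and 0.01, when CD+DSS replicate 3 was. Fut2, which makes the fucosylated epitopes of the gut surface, was at 29.96, 27.6 and 35.6 in CD and at 55.4, 72.5 and 69.3 in CD+DSS, in the opposite direction (limma adjusted p = 0.16).

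Tceal8 (ENSMUSG00000051579, chromosome X), a gene related to transcription elongation factor TFIIS, fell from 10.0, 10.3 and 8.99 to 4.47, 4.31 and 5.36 (log2 -0.91 ± 0.12; limma adjusted p = 0.0325). The libraries of each group were close together. St3gal6 and Tceal8 lost their calls with posterior Hox level as a covariate, with log2 values of -1.44 and -0.88 (limma adjusted p = 0.526 for both).

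Beyond the 12 genes, 22 genes had a limma adjusted p from 0.05 to 0.06, 16 higher and 6 lower. Besides Reg3b, Nos2, Mmp10, Hspa1b and Lrg1 they included Clca4b, a chloride channel regulator of the surface epithelium, at 2.78, 17.1 and 5.32 in CD and 111, 108 and 175 in CD+DSS (log2 4.09 ± 0.72). Nxpe2 was at 34.1, 46.1 and 14.5 against 6.21, 2.38 and 5.77. The remaining examples were chosen after their values were seen. The small leucine-rich proteoglycan gene Ogn was at 60.5, 91.9 and 45.8 against 25.4, 13.2 and 14.3, and Hhip, an inhibitor of hedgehog signalling, at 2.13, 5.43 and 2.76 against 0.537, 0.18 and 0.798. The integrin gene Itga3, which anchors epithelium to laminin, was at 23.4, 22.2 and 20.7 against 41.3, 39.4 and 38.5. Over all genes 229 had a log2 fold change of 1 or more and 212 of -1 or less.

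**Figure D3:**
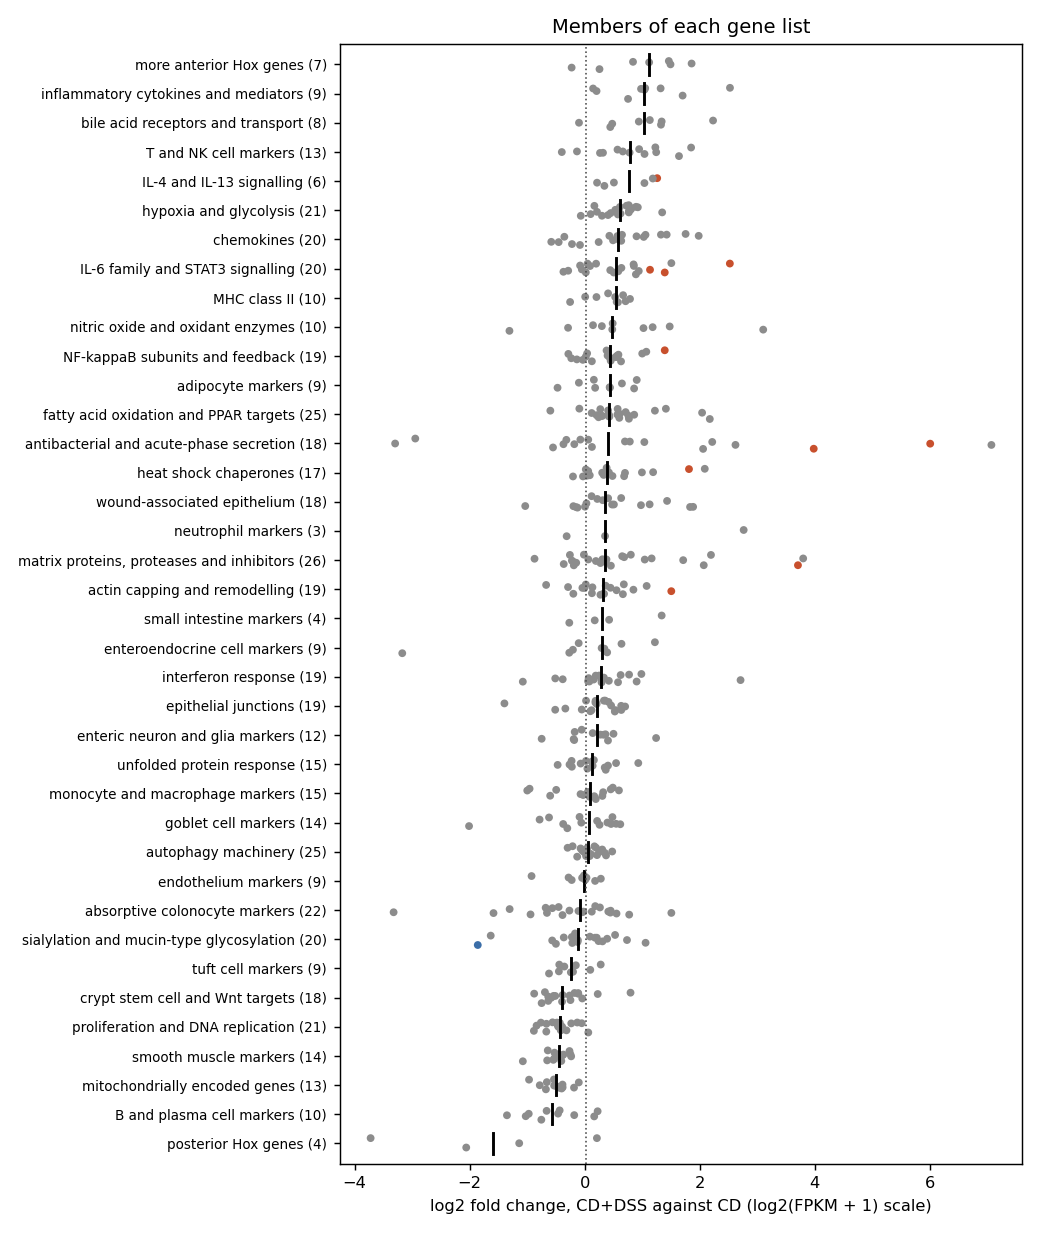
Log2 fold change of CD+DSS against CD for each tested member (points) of the gene lists with 3 or more tested members, apart from haemoglobin and sex-linked genes. Black bars are list medians, the dotted line is the median of all genes, orange points rose and the blue point fell, and the number after each name is the count of tested members. Medians run from -1.60 for posterior Hox genes to 1.12 for more anterior Hox genes.

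Epithelial lists differed in the sign of their medians, and apart from those named above none of their members passed the test. Crypt stem cell and Wnt target genes had a positive difference in 2 of 18, with 6 not overlapping downward and 1 upward (median -0.39). CD+DSS replicate 2 was the lowest CD+DSS library in 13 of the 18, and the median was -0.21 without it and -0.63 without replicate 3. Axin2, a Wnt target and feedback inhibitor, was at 10.0, 5.57 and 5.44 in CD and at 2.48, 3.51 and 3.77 in CD+DSS, and Tnfrsf19 at 1.70, 1.11 and 1.61 against 0.645, 0.469 and 0.637. Tnfrsf19 was tested only through CD, so it had to be among the genes not overlapping downward. Lgr5, the stem cell receptor, was under the limit. Proliferation and DNA replication genes were positive in 1 of 21, with 7 not overlapping downward (median -0.44). The proliferation marker Mki67 was at 36.1, 40.4 and 28.2 against 23.6, 11.8 and 28.1. CD+DSS replicate 2 was lowest in 20 of these 21 genes, and the median was -0.19 without it and -0.66 without replicate 3.

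Goblet cell markers had a median of 0.08, with 7 of 14 positive, and the median was -0.16 without CD replicate 2 and 0.17 without CD replicate 3. Muc2, the main secreted mucin, was at 1109, 510 and 768 in CD and at 870.0, 1268 and 671 in CD+DSS, and the groups overlapped. Clca1, another product of goblet cells, was at 763, 1087 and 3795 against 723, 328 and 201, where CD replicate 3 stood high. Absorptive colonocyte markers had a median of -0.08, with 9 of 22 positive, and it was 0.19 without CD+DSS replicate 3, or -0.34 when CD replicate 3 was left out. The only 2 of the 22 without overlap were higher in CD+DSS, a smaller share than the 14.1% of all genes that did not overlap upward. Guca2b, the peptide uroguanylin, was at 14.9, 14.99 and 21.6 against 23.0, 45.6 and 24.6, and Vil1, the microvillus protein villin, at 174, 161 and 177 against 264, 291 and 203. Slc26a3, the chloride and bicarbonate exchanger, was at 164, 154 and 40.1 against 63.6, 21.9 and 25.3, and the groups overlapped through CD replicate 3. The water channel gene Aqp8 was at 452, 324 and 63.2 against 170, 155 and 137. Insl5, a hormone of distal colonic L cells, was at 93.7, 93.5 and 42.4 against 51.0, 2.25 and 2.13, with low values in the libraries that were low in Hoxb13. Median values were 0.29 for 9 enteroendocrine and -0.24 for 9 tuft cell markers, or 0.10 without CD+DSS replicate 2 and -0.38 without CD replicate 2.

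Wound-associated epithelial genes were positive in 14 of 18, with 5 not overlapping upward (median 0.36). Sprr1a, a cornified envelope protein, was at 16.3, 9.00 and 6.92 in CD and at 39.8, 46.7 and 30.6 in CD+DSS (limma adjusted p = 0.0942). Ereg, a growth factor of the EGF family, was at 5.78, 5.60 and 3.27 against 19.0, 9.21 and 46.0. Epithelial junction genes were positive in 15 of 19, with 8 not overlapping upward (median 0.21, or 0.33 without CD+DSS replicate 1 and 0.32 without replicate 3). Jup, plakoglobin, was at 43.2, 41.3 and 43.8 against 59.6, 70.4 and 56.3, whereas Cldn2, a pore-forming claudin, was at 58.1, 52.9 and 94.3 against 60.0, 55.9 and 90.3. The Cldn2 values of both groups overlapped.

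Hypoxia and glycolysis genes were positive in 20 of 21, and 12 did not overlap upward (median 0.61). Pfkp, a phosphofructokinase, was at 13.7, 13.7 and 14.997 in CD and at 21.9, 30.5 and 22.5 in CD+DSS (limma adjusted p = 0.0783). Ndrg1, induced by low oxygen, was at 24.1, 15.6 and 16.3 against 31.1, 77.1 and 46.0. Fatty acid oxidation and PPAR target genes were positive in 23 of 25, and 11 did not overlap upward (median 0.43). Vnn1, a pantetheinase, was at 0.67, 1.05 and 1.64 against 3.28, 20.1 and 5.94. Bile acid receptor and transport genes were positive in 7 of 8 (median 1.03), with the basolateral exporter subunit gene Slc51b at 18.0, 17.7 and 32.6 against 48.1, 91.2 and 40.3. CD+DSS replicate 2, in which Hoxb13 was nearly absent, was the highest CD+DSS library in 15 of the 21, 23 of the 25 and 8 of the 8 genes, against 43.7% of all genes. Without it the medians were 0.44, 0.27 and 0.65, holding the posterior Hox level constant they were 0.51, 0.41 and 0.61, and holding the smooth muscle level constant they were 0.48, 0.23 and 0.66. The bile acid median was 0.63 without CD replicate 1. With the smooth muscle level held, the medians of wound-associated and junction genes were 0.07 and 0.06, and those of the antibacterial, IL-4 and IL-13 and actin lists were 0.23, 0.47 and 0.19. With the posterior Hox level held, the wound-associated median was 0.63, the actin median 0.48 and the proliferation median -0.29.

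The series is titled for autophagy. Of 25 autophagy genes, 18 had a positive difference and 4 did not overlap upward, near the 14.1% of all genes without overlap in that direction. Their median was 0.06, or -0.01 after rescaling to TPM, in which every library has the same sum. It lay between -0.05 (without CD+DSS replicate 2) and 0.14 (without replicate 3). No member passed. Sqstm1, the cargo receptor p62, was at 72.2, 65.0 and 73.2 in CD and at 85.5, 114 and 76.7 in CD+DSS (limma adjusted p = 0.335), without overlap. Mitochondrially encoded genes were negative in all 13, with no member free of overlap (median -0.49). That median was -0.20 without CD replicate 2, -0.77 without CD+DSS replicate 2, -0.32 without CD+DSS replicate 3 and -0.12 with the posterior Hox level held.

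Among the CD+DSS libraries, T and NK cell genes were highest in replicate 1. Of 13 T and NK cell markers tested, 11 had a positive difference and 7 did not overlap upward (median 0.78). Gzma, a cytotoxic granule protease, was at 6.50, 7.46 and 23.0 in CD and at 68.3, 37.6 and 25.5 in CD+DSS, and Cd8a, the co-receptor of cytotoxic T cells, at 1.70, 2.08 and 3.36 against 10.5, 6.21 and 4.61. CD+DSS replicate 1 was the highest CD+DSS library in 13 of the 13 genes, against 26.9% of all genes, and the median was 0.54 without it. The same replicate was highest in 10 of 10 MHC class II genes, where H2-Ab1 was at 148, 192 and 312 against 552, 276 and 256 and the list median was 0.54, or 0.18 without that library and 0.30 without CD replicate 1. Ido1, a tryptophan-degrading enzyme induced by interferon gamma, was at 1.54, 3.91 and 9.37 against 138, 18.0 and 12.6. Interferon response genes had a median of 0.29 that single libraries moved, to 0.08 without CD+DSS replicate 1, 0.07 without replicate 2, 0.78 without replicate 3, 0.49 without CD replicate 2 and -0.01 without CD replicate 3.

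B and plasma cell markers had a positive difference in 2 of 10 (median -0.56, or -0.92 without CD replicate 1). Jchain, which joins IgA into dimers, was at 611, 1024 and 864 in CD and at 451, 215 and 333 in CD+DSS, and Tnfrsf17, the BCMA receptor of plasma cells, at 3.53, 4.45 and 3.53 against 1.73, 1.09 and 1.32. These were the only 2 of the 10 without overlap. The immunoglobulin gene Igkc was at 4265, 7812 and 7901 against 4573, 2197 and 3451, and its groups overlapped. Macrophage markers were divided, with 9 of 15 positive, no member free of overlap and a median of 0.08 that was -0.16 without CD+DSS replicate 1 and 0.37 without replicate 2. Smooth muscle markers were negative in all 14 (median -0.45, or -0.68 without CD+DSS replicate 1), with Myh11 at 129, 156 and 131 against 134, 69.9 and 73.1, so that CD+DSS replicate 1 was within the CD range. Of enteric neuron and glia markers 7 of 12 were positive and 6 did not overlap upward (median 0.20). The glial filament gene Gfap had the largest rise of the 12, at 1.21, 1.22 and 1.11 against 4.85, 3.90 and 3.75 (limma adjusted p = 0.134). Vip had the lowest log2 fold change of the 12, at -0.75 ± 0.37, and its groups overlapped (limma adjusted p = 0.355). Endothelial markers had a median of -0.01, between -0.20 without CD+DSS replicate 1 and 0.32 without replicate 2. Adipocyte markers had a median of 0.43, or -0.05 without CD replicate 2, and only 2 of 12 exocrine pancreas and 4 of 10 small intestine markers were tested.

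**Figure D4:**
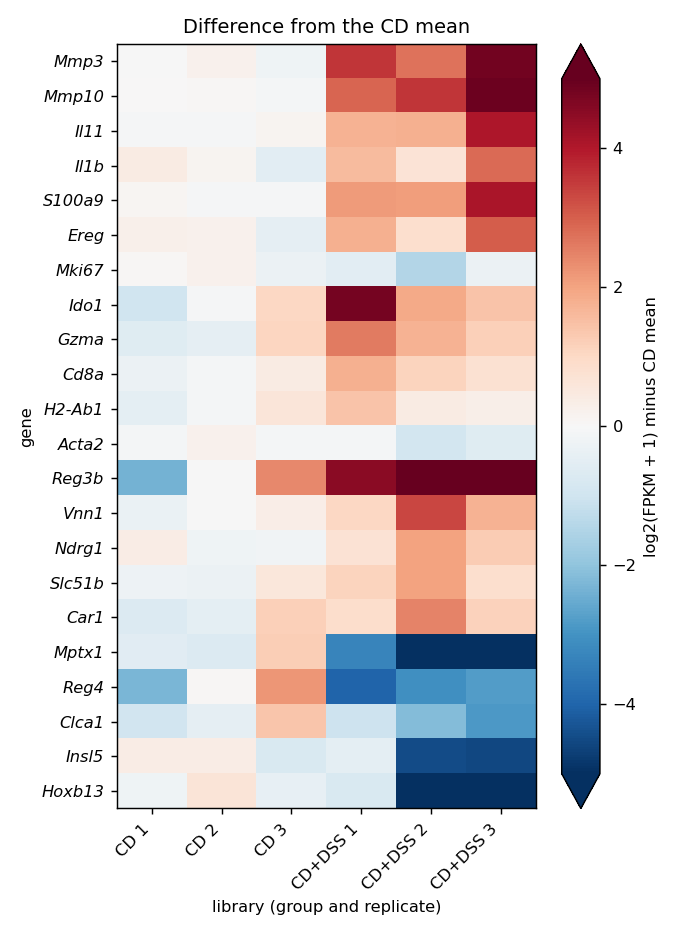
Difference of log2(FPKM + 1) from the CD mean (colour, with larger differences shown at the ends of the scale) for 22 genes (rows) in the 6 libraries (columns). Protease, cytokine and growth factor genes at the top are highest in CD+DSS replicate 3, Ido1 to H2-Ab1 in replicate 1, and Vnn1, Ndrg1, Slc51b and Car1 in replicate 2, while Hoxb13, Insl5 and Mptx1 are lowest in replicates 2 and 3.

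The CD+DSS libraries thus differed in which lists they led. Car1, a carbonic anhydrase of the colon surface, was at 1139, 1296 and 4170.3 in CD and at 3345, 10239 and 4108 in CD+DSS, and the groups overlapped. The Hoxb4, Hoxb7 and Hoxb8 genes of the more anterior axis were higher in CD replicate 3 and in the CD+DSS libraries than in CD replicates 1 and 2. Hoxb8 was at 0.728, 1.35 and 6.19 against 4.93, 12.2 and 7.25. CD replicate 3 was the CD library nearest to CD+DSS in these genes, and leaving it out gave the highest counts of called genes.

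The DSS difference under CD was set beside that under HFD, which uses other libraries. The interaction, the DSS difference under HFD minus that under CD, was past the adjusted threshold for 0 of 13275 genes (0%) in limma and for 0 in voom on recovered fragments, with 707 genes at an unadjusted p under 0.05. It was past it for 3 genes without CD replicate 3 and for 1 without CD+DSS replicate 1. A miss of the threshold does not show that DSS acted alike under both diets. The log2 fold changes under HFD were 3.34 for Mmp3, 2.66 for Socs3, 1.42 for Bcl3, 1.12 for Sbno2 and 5.12 for Reg3g. They were 1.13 for Capg, 2.74 for Saa3, 0.79 for Hspa1a, 0.64 for Il4ra, 0.60 for Fer1l4, -0.23 for Tceal8 and -0.02 for St3gal6. The 12 were chosen by their CD values, which favours larger differences there. The corresponding values under CD are given above.

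St3gal6 had the smallest interaction p of the 12 genes. It was at 7.45, 13.3 and 12.5 in HFD and at 13.1, 10.1 and 9.11 in HFD+DSS, so the groups overlapped there and the CD libraries alone were high (interaction 1.84 ± 0.35; unadjusted p from limma 0.000232, adjusted p = 0.384). Hspa1a was at 2.84, 1.89 and 4.09 against 7.29, 3.81 and 6.23 under HFD, with an overlap of groups that CD did not have. Its interaction was -1.03 ± 0.38 (limma adjusted p = 0.834). Nkg7, a granule protein of cytotoxic cells, was among the 5 genes with the smallest interaction p. It was at 2.43, 2.51 and 6.04 in CD, 11.6, 8.51 and 8.29 in CD+DSS, 11.3, 12.0 and 8.28 in HFD and 2.65, 4.43 and 3.55 in HFD+DSS (interaction -2.59; limma adjusted p = 0.167). Its DSS libraries were above the others under CD and below them under HFD. Pla2g2f, a secreted phospholipase, was at 14.7, 12.3 and 14.0 in CD, 8.15, 3.22 and 5.52 in CD+DSS, 1.53, 1.86 and 3.78 in HFD and 7.90, 7.40 and 12.7 in HFD+DSS, the opposite order (interaction 2.84; limma adjusted p = 0.167).

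**Figure D5:**
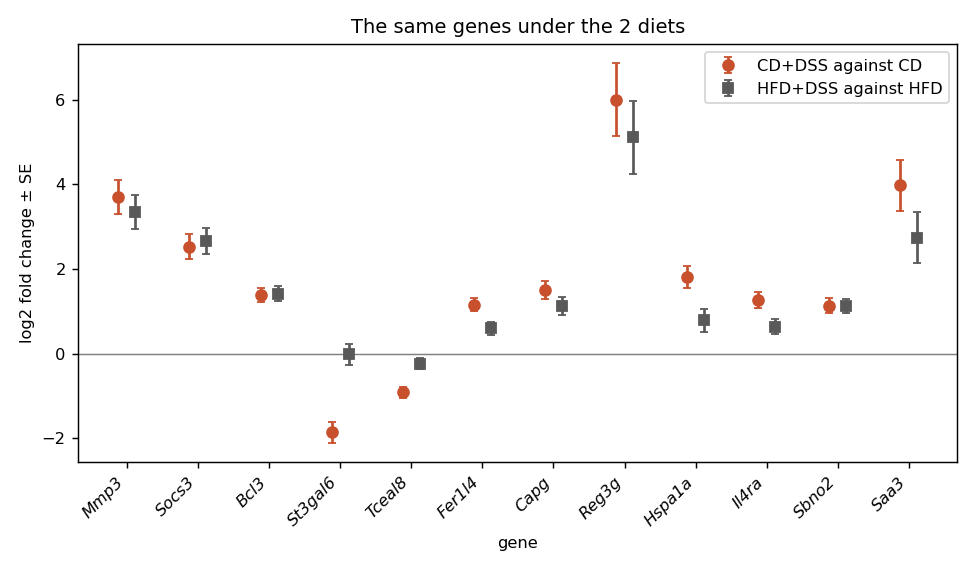
Log2 fold change with DSS (y axis, points with bars of 1 SE) under CD and under HFD for the 12 genes past the threshold under CD (x axis). The genes were chosen by their CD values, which favours larger CD differences. Socs3, Bcl3 and Sbno2 nearly coincide, and St3gal6 is at -1.86 under CD and -0.02 under HFD.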

How the data were processed

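The authors deposited FPKM values of 54532 Ensembl genes in the 12 samples as a single table. The submitters' processing notes name the genome build mm10. For the aligner, the counting and the scaling: not given in the sources used here. Per the labels, a SMARTER mRNA-Seq kit was used on total RNA. Symbols and coordinates came from GENCODE M21, which matched 54409 identifiers. Gapdh, a gene that every cell uses, was listed at only 1.02 to 11.2, so genes with close copies may have lost reads.

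Low FPKM stepped in whole multiples per gene, and fragments were recovered from FPKM and exon length, with 97.0% to 97.2% of values whole within 0.1 fragment. The median ratio to the geometric mean was 1.009 in every library, so the deposited values were already scaled to each other. Within CD and within CD+DSS, the median squared difference between replicates was 8.63 to 25.1 times that of counting noise. No library was treated as deposited again.

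Tests were made on log2(FPKM + 1) with limma 3.58.1 under R 4.3.3, using eBayes with trend. The fit had 1 mean for each of the 4 groups and took in all 12 samples, and p-values were adjusted by Benjamini-Hochberg over 13275 genes, with calls under 0.05. Fold changes on this scale understate those of low genes. The fit was tested on simulated data for CD+DSS against CD with 13275 genes. It called 22 of 50 genes raised and 30 of 50 lowered by 1 on the log2 scale, 49 of 50 and 47 of 50 at a change of 2, and 8 of 13075 unchanged genes. Changes were put only into genes with a CD mean of log2(FPKM + 1) above 2, and genes varied independently of each other. The detection rates thus do not cover lower genes such as Mmp3, Fer1l4 and Saa3. Whether these rates hold for the deposited libraries, where those of a group differed across many genes, was not tested. Alternatives changed the samples, filter, pseudocount, scaling, variance prior, covariates and test.

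The genes and 41 gene lists were chosen with earlier results of these data known. Named were all called genes, the leading members of each list by p (at most 3), a panel of markers, the 5 smallest interaction p, and the 10 largest rises and falls without overlap at a mean FPKM of 5 or more. Some genes were named outside this rule. Il4, Il13, Elane and Mpo show the levels of ligands and granule genes. Ogn, Hhip, Itga3, Il18, Vil1, Saa1 and Lypd8 were added after their values were seen. Lists are described by counts and medians, with no set test.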

Additional observations from a re-analysis of the deposited data

How the results depend on the processing

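The direction of the 12 called genes was the same in every alternative that tested them. Many of these fits could not have reversed it, because the CD and CD+DSS libraries did not overlap in these genes. The counts of called genes were not stable. Against 10 higher and 2 lower genes, there were 0 and 0 with only the 6 CD and CD+DSS samples, 3 and 0 without a filter, 30 and 6 with a pseudocount of 0.1 at a mean FPKM of 5 or more, 1 and 0 when the fit held the posterior Hox level, and 0 and 0 when it held the smooth muscle level. After rescaling to TPM 12 were higher and 1 lower, and 8 of these 13 were among the 12. With CD+DSS replicate 1 as the only CD+DSS library, chosen after seeing the data, 2 were higher and 0 lower, a lone library being assumed to vary like the other groups. Leaving out 1 library at a time gave 0 to 36 higher, 0 to 19 lower and 0 to 3 genes with an interaction. The cause was not tested.

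Titles share replicate numbers, but same-numbered CD and CD+DSS libraries did not deviate together, with correlations of -0.22, -0.09 and 0.01 over genes. A fit with the replicate block called 2 higher (Mmp3 and Saa3) and 0 lower. Other filters, the fit without trend and voom gave 10 to 12 higher and 2 to 3 lower. Depth limits genes near FPKM 1, such as Il6 and S100a8, where few fragments stand behind a value.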
